A study of Mus musculus with 49 samples.

Results

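The brush border digestive hydrolases described here are 9 genes: Sis, Lct, Treh, Anpep, Enpep, Dpp4, Alpi, Akp3 and Tmprss15. They were taken by name from a table of RNA read counts that holds 24062 genes, and all 9 were in the table under these symbols. Each was among the 14837 genes left by a filter on low counts. Tmprss15 was among them through the groups in which it was high, since other groups held fewer than 10 reads of it per library.

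The brush border is the layer of microvilli on the luminal face of absorptive enterocytes. Enzymes anchored in it carry out the last step of digestion: disaccharidases split sugars, peptidases split short peptides, alkaline phosphatases remove phosphate groups, and enteropeptidase activates pancreatic trypsinogen. Their products are taken up by transporters in the same membrane. These enzymes are known as markers of mature enterocytes on the villus, and crypts, where stem and progenitor cells lie, are known to hold little of them.

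The 25 RNA libraries, in 12 groups, were read from 1 end over 75 bp and came from crypt cells of mice of B6;129 mixed background. Crypts came from the proximal 1/3 of the intestine after the villi had been scraped off. Lgr5-GFP-Cre cells (n = 3, genotype Lgr5EGFP-IRES-CRE-ERT2) and Lgr5-GFP-DTR cells (n = 2, genotype Lgr5EGFP-DTR) are stem cells sorted on GFP from 2 reporter lines. Bmi1-GFP cells (n = 3, genotype Bmi-1GFP/+) were sorted on GFP from untreated mice, and 1 library came from such mice 36 h after 10 Gy of whole-body radiation. Enterocyte progenitors (n = 2) are unsorted crypts of Atoh1 F/F; Villin-CRE mice, collected 3 weeks after 5 daily doses of 1 mg tamoxifen. Atoh1 encodes the transcription factor that secretory cells need, and the Villin promoter drives Cre throughout the gut epithelium. Secretory progenitors came from unsorted crypts of either of 2 models (n = 2 each). In one, Atoh1 F/F mice, for which no Cre is stated, received the Notch inhibitor DBZ (dibenzazepine) at 48 mg/kg, repeated after 12 h, with crypts taken at 38 h. In the other, Rbpj F/F; Villin-CRE mice received 2 mg tamoxifen 2 times a day on 2 days, with crypts taken on day 3. From wild-type mice, enteroendocrine cells (n = 2) were taken as CD24-high cells that did not bind the lectin UEA, and Paneth cells (n = 2) as CD24-high and UEA-high. CD274+CD69+ cells of wild-type mice were sorted from controls (n = 2), from mice given 4 injections of diphtheria toxin (DT) at 50 µg/kg on alternate days and killed 1 day after the last (n = 2), and, as goblet cells (n = 2), from mice killed 115 h after DBZ at 48 mg/kg given as above. The labels give the toxin-treated mice as wild type, with no receptor transgene named. Cells sorted on GFP were released with TrypLE and all other sorted cells with Dispase. For the unsorted crypts no release enzyme is stated.

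Library totals ran from 11179085 to 27371108 reads, and the 9 genes together took between 0.0392% and 2.50% of them. The labels call the replicates biological without saying which shared a mouse or a day, so p-values measure the spread between these libraries. Both Rbpj libraries and replicate 1 of the CD274+CD69+ controls were labelled as made with a TruSeq kit, and the rest with SMART-Seq v4. The 2 CD274+CD69+ control libraries, although labelled with different kits, were closer to each other than any other pair of replicates: the median chi-square per gene was 1.09, where sampling alone gives 0.455 and the other pairs gave 2.76 to 20.4. They differed by more than sampling and were kept as 2 samples, with a repeat in which they were 1 sample. The libraries labelled goblet carried goblet markers (summed level of 9 markers 69744 and 113570 CPM) and also 12 enterocyte markers at 128195 and 125566 CPM, against 3278 to 25119.5 CPM in the libraries of the other replicated groups. CPM are read counts relative to library size after scaling by the trimmed mean of M-values (TMM). In these bulk samples, fewer cells of a type and less RNA per cell cannot be told apart. Levels are compared within a gene only, because transcript lengths were not used here.

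The promoters of 5 of the genes are shown: those of the disaccharidases, and those of the phosphatases Alpi and Akp3, which are neighbours that differ in pattern. Each is the 250 bases before the RefSeq start site in GRCm38.p6 (mm10), 5′ to 3′ on the strand of the gene. Capitals mark every match, on either strand, to the 5 motifs spelled out after the sequences, and Akp3 has none.
Alpi, chr1:87101607-87101856, minus strand: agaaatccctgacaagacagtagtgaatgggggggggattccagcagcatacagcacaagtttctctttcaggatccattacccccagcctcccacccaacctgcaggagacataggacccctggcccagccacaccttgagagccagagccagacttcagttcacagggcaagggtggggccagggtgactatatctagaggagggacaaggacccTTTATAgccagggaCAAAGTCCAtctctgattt
Akp3, chr1:87124704-87124953, plus strand: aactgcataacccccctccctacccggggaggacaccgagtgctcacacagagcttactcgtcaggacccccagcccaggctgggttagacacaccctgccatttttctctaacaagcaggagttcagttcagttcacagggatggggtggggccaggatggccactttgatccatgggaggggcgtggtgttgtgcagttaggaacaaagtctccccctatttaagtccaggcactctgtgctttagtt
Treh, chr9:44672983-44673232, plus strand: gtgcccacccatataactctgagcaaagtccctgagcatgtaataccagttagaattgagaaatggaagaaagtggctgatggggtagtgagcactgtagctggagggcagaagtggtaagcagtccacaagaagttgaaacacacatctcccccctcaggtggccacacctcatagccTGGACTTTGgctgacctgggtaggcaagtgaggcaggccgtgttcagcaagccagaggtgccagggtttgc
Sis, chr3:72967864-72968113, minus strand: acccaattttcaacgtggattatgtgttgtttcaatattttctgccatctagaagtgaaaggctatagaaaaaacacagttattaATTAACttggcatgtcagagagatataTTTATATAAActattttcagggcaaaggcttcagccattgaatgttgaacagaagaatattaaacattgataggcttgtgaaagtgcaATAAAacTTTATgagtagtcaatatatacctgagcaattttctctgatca
Lct, chr1:128328319-128328568, minus strand: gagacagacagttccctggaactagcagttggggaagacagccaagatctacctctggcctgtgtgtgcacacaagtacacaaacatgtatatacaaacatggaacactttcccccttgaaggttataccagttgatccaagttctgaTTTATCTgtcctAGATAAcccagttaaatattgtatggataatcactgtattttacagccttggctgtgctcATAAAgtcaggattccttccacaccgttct
The letters CAAAGTCCA, known as an HNF4-type motif, occurred in Alpi, 19 bases before the start, and in Treh, 71 bases before it on the opposite strand, and in 0.38% of 32851 promoters of the same length. The HNF1-type letters GTTAAT occurred in Sis and Tmprss15 and in 6.43% of promoters. The GATA-type letters AGATAA occurred in Lct and Dpp4 and in 9.99% of promoters. The CDX-type letters ATAAA occurred in 6 of the 9 and in 37.26% of promoters, and the TATA box letters TATAAA, which contain them, in 4 of the 9 and in 12.37%. The promoters of Alpi and Akp3 aligned over 212 bases with 145 identical (68.4%). At the place of the Alpi match CAAAGTCCA, Akp3 has CAAAGTCTC. These are matches of letters and not measured sites.

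**Figure D1:**
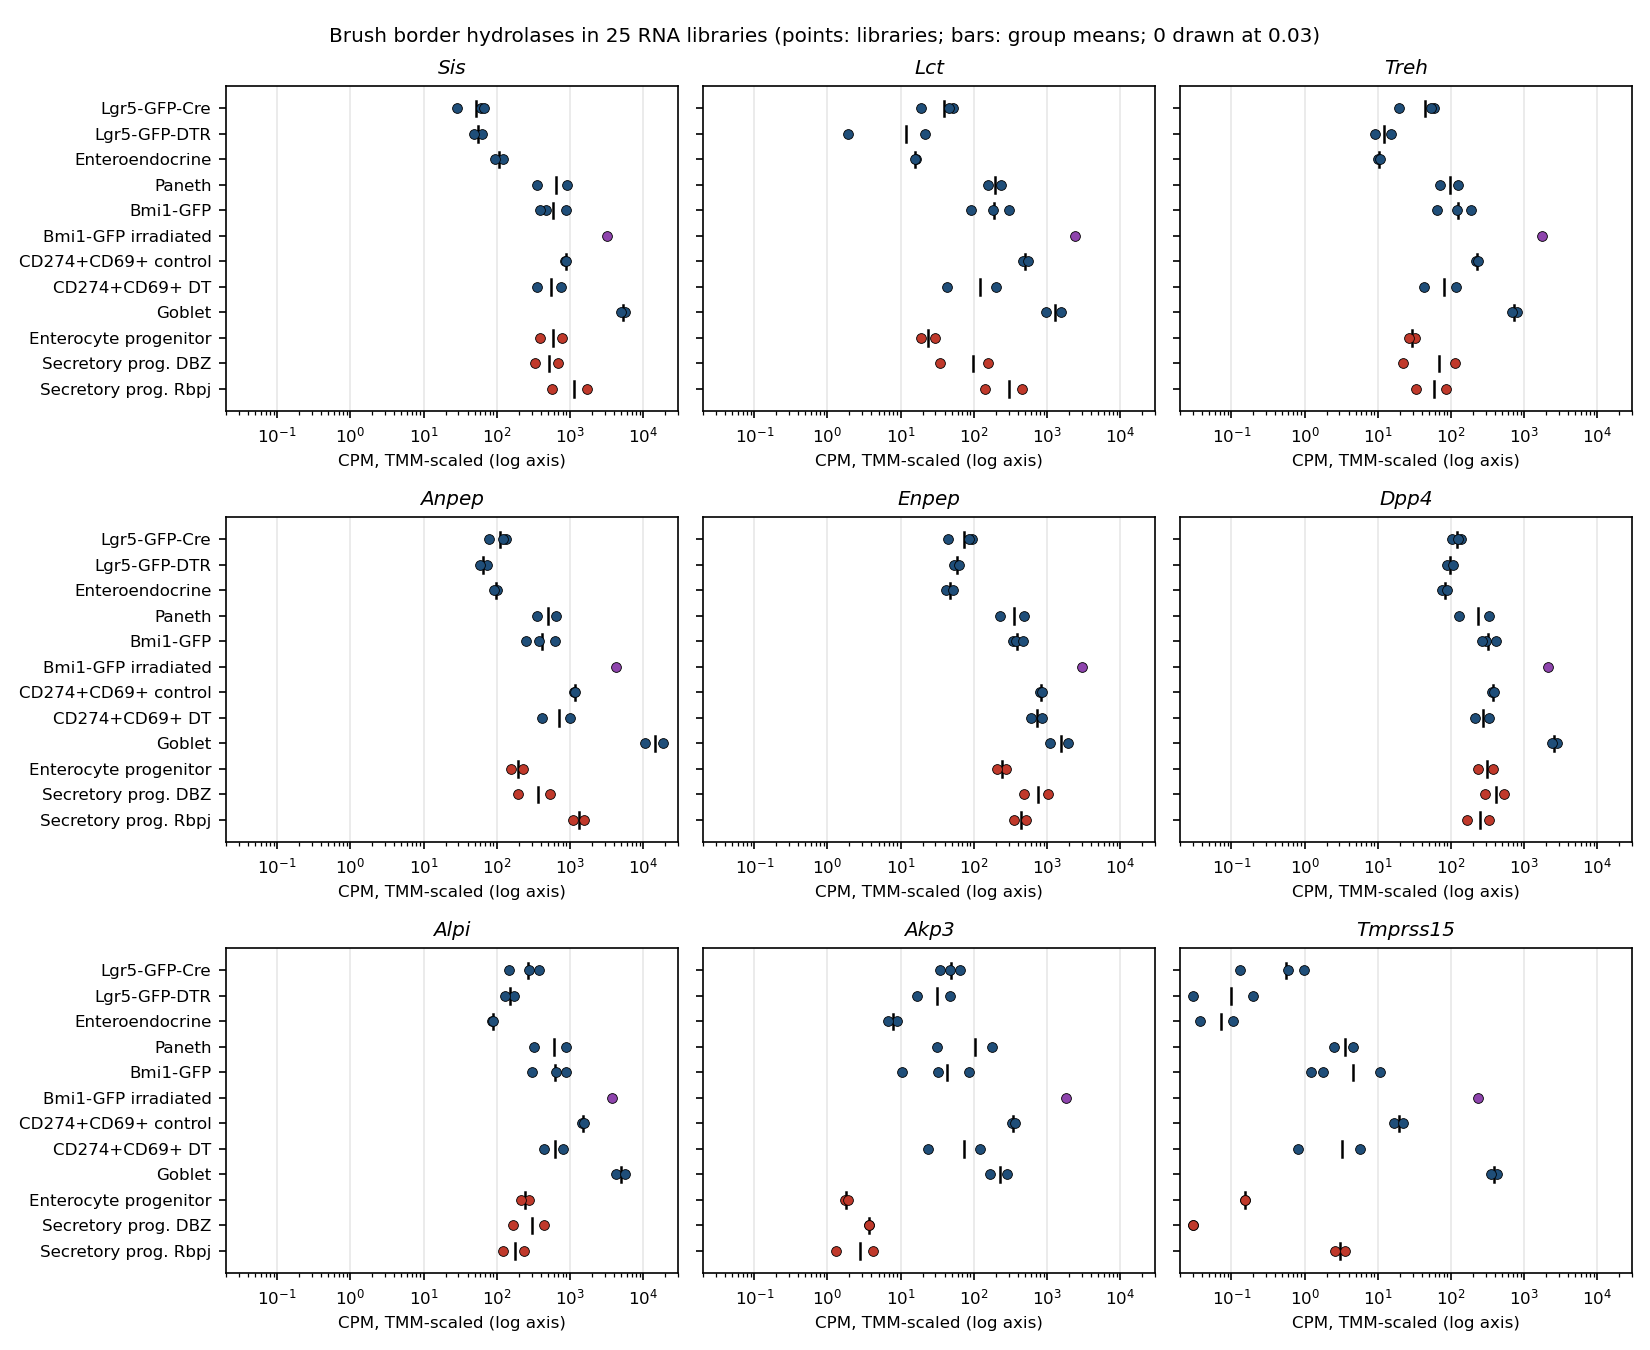
Level of each hydrolase gene (CPM on a log axis, 1 panel per gene) in 25 libraries by group; points are libraries (red, unsorted crypts; blue, sorted cells; purple, the irradiated library), bars are group means and 0 is drawn at 0.03. Goblet libraries are the rightmost replicated group in 8 of 9 panels, and in the Akp3 panel the 6 red points lie at the left, from 1.29 to 4.23 CPM.

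Of the disaccharidases, Sis (sucrase-isomaltase, which splits sucrose and the branch points of starch; chr3:72888557-72967863, minus strand) was low in stem and enteroendocrine cells, highest in goblet libraries, and spread over an overlapping range in the rest. In Lgr5-GFP-Cre cells Sis was at 29.1, 60.7 and 67.8 CPM, and in Lgr5-GFP-DTR cells at 62.4 and 49.5 CPM. It was 123 and 95.0 CPM in enteroendocrine cells. These 7 libraries were below every library of the other groups. Sis was 789 and 395 CPM in enterocyte progenitors, 335 and 696 CPM in DBZ crypts and 564 and 1716 CPM in Rbpj crypts. It was 355 and 929.7 CPM in Paneth cells, 476, 387 and 892 CPM in Bmi1-GFP cells and 361 and 752 CPM in CD274+CD69+ cells after DT. These 6 groups overlapped one another in sequence with the CD274+CD69+ controls, at 863 and 896 CPM. Goblet libraries held 5733 and 4997 CPM, above all other replicated groups.

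Lct, at chr1:128284756-128328318 on the minus strand, encodes lactase, which splits milk sugar and is known to be highest before weaning. Among the replicated groups Lct was also highest in goblet libraries, at 1579 and 971 CPM. CD274+CD69+ controls followed at 475 and 544 CPM without overlap, then Rbpj crypts at 144 and 454 CPM. Below these, neighbouring groups overlapped down to enterocyte progenitors, at 29.4 and 18.7 CPM. Lgr5-GFP-DTR libraries were the lowest by mean but spread from 1.92 to 21.8 CPM, on either side of enteroendocrine cells at 16.1 and 15.6 CPM. Treh, at chr9:44673233-44686305 on the plus strand, encodes trehalase, which splits the sugar trehalose. Among the replicated groups Treh kept the same head of the order. Goblet libraries held 794 and 687 CPM and CD274+CD69+ controls 218 and 239 CPM. Bmi1-GFP cells came next at 123, 65.2 and 190.1 CPM, and the foot was formed by Lgr5-GFP-DTR cells at 9.09 and 15.1 CPM and enteroendocrine cells at 10.0 and 10.9 CPM.

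Of the peptidases, Anpep (aminopeptidase N, also called CD13, which removes neutral amino acids from peptide ends; chr7:79821803-79848210, minus strand) had the greatest ratio of highest to lowest group mean among the 8 genes for which one can be given. Goblet libraries held 18650.3 and 10500.0 CPM of Anpep, and the mean there was 222-fold that of Lgr5-GFP-DTR cells at 72.8 and 58.7 CPM. Rbpj crypts at 1109.8 and 1586 CPM and CD274+CD69+ controls at 1153 and 1181 CPM overlapped in second place among the replicated groups. DBZ crypts held 196 and 535 CPM and enterocyte progenitors 232 and 159 CPM. Anpep was 415 and 991 CPM in CD274+CD69+ cells after DT, 355 and 649.8 CPM in Paneth cells and 379, 248 and 628 CPM in Bmi1-GFP cells. Lgr5-GFP-Cre cells at 79.7, 132 and 123 CPM overlapped enteroendocrine cells at 99.9 and 93.3 CPM. Anpep took 38.8% and 51.1% of all reads of the 9 genes in goblet libraries, and 11.5% to 12.6% in enterocyte progenitors. In Rbpj crypts that share was 32.1% to 44.4%, and in DBZ crypts 12.8% to 15.2%.

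Enpep (aminopeptidase A, which removes acidic amino acids and is known for cleaving angiotensin; chr3:129269177-129332749, minus strand) was high in DBZ crypts. It stood at 483 and 1032 CPM there, overlapping CD274+CD69+ controls at 817 and 855 CPM and CD274+CD69+ cells after DT at 604 and 868 CPM. Enterocyte progenitors held 279 and 209.7 CPM and Rbpj crypts 354 and 518 CPM. Goblet libraries were highest of the replicated groups at 1972 and 1116 CPM, and enteroendocrine cells lowest at 42.4 and 51.4 CPM. Enpep made up 29.3% and 31.5% of the reads of the 9 genes in DBZ crypts, against 4.1% and 5.4% in goblet libraries, the reverse of the order for Anpep.

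Dpp4 (dipeptidyl peptidase 4, also called CD26, which removes dipeptides and inactivates incretin hormones; chr2:62330073-62412315, minus strand) varied least by ratio. The mean of the goblet libraries, at 2842 and 2381 CPM, was 31.7-fold that of enteroendocrine cells, at 75.6 and 89.3 CPM. Every other replicated group overlapped its neighbour in the order, from DBZ crypts at 292 and 541 CPM through Lgr5-GFP-DTR cells at 88.9 and 108 CPM to enteroendocrine cells. Dpp4 is also known on T cells and Anpep on myeloid cells. The summed level of 6 lymphocyte markers was 863 to 2105 CPM in Bmi1-GFP libraries, 211 and 335 CPM in goblet libraries and at most 264 CPM in the other libraries of replicated groups. That of 6 myeloid markers was 235 and 400 CPM in enteroendocrine cells and 6.58 to 92.1 CPM elsewhere in the replicated groups; in goblet libraries it was 13.5 and 17.5 CPM, with Il1b at 0. The part of these cells in the levels of Dpp4 and Anpep was not tested.

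The alkaline phosphatases Alpi and Akp3 lie beside each other on chromosome 1 (Alpi, chr1:87098002-87101606, minus strand; Akp3, chr1:87124954-87128728, plus strand) and are transcribed away from each other. Alpi is the intestinal alkaline phosphatase, known for removing phosphate from bacterial lipopolysaccharide, and Akp3 is its duodenal paralog in the mouse. Since such paralogs share sequence and the counting rule is not given in the sources used here, reads may have been split between them, and their values are uncertain to that extent.

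Alpi followed the pattern of the other genes. Goblet libraries stood at 4346 and 5730.4 CPM and CD274+CD69+ controls at 1452 and 1542 CPM, each without overlap with the next group. Between these and enteroendocrine cells, at 87.7 and 88.9 CPM, neighbouring groups overlapped. Lgr5-GFP-Cre cells at 146, 378 and 274 CPM overlapped enterocyte progenitors at 280.3 and 213 CPM and DBZ crypts at 167 and 448 CPM.

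Akp3 did not follow it. All 6 libraries of unsorted crypts held between 1.29 and 4.23 CPM of Akp3, and all 19 libraries of sorted cells between 6.73 and 1806 CPM, so the 2 kinds of library did not overlap. For the other 8 genes they overlapped. Of all genes tested, 0.640% did not overlap in this split, and 0.324% were lower in every unsorted library, as Akp3 was. Akp3 was 1.72 and 1.89 CPM in enterocyte progenitors, 3.66 and 3.68 CPM in DBZ crypts and 1.29 and 4.23 CPM in Rbpj crypts. It was 34.3, 65.1 and 47.0 CPM in Lgr5-GFP-Cre cells and 332 and 364 CPM in CD274+CD69+ controls. Goblet libraries, the highest for every other gene among the replicated groups, held 166 and 289 CPM, below the controls. This split by sorting was noticed after the values were seen and is given without a test. Sorting, the enzyme that released the cells, and the genotype or treatment of the mice go together in these groups and cannot be told apart.

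Set against Alpi in the same library, Akp3 gave 0.614 to 2.20 reads per 100 reads of Alpi in unsorted crypts and 3.45 to 26.8 in sorted cells of replicated groups. The lowest ratios among sorted cells were those of Bmi1-GFP replicates 2 and 1 (3.45 and 4.94) and of the goblet libraries (3.81 and 5.05), while Bmi1-GFP replicate 3 stood at 9.58, and the highest was 47.3, in the irradiated Bmi1-GFP library. Alppl2, another phosphatase of this cluster (chr1:87086690-87095934, minus strand), was low throughout, with 2.75 ± 0.286 (SD, n = 2) CPM in goblet libraries and 9.24 ± 0.591 (SD, n = 2) CPM in DBZ crypts.

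**Figure D2:**
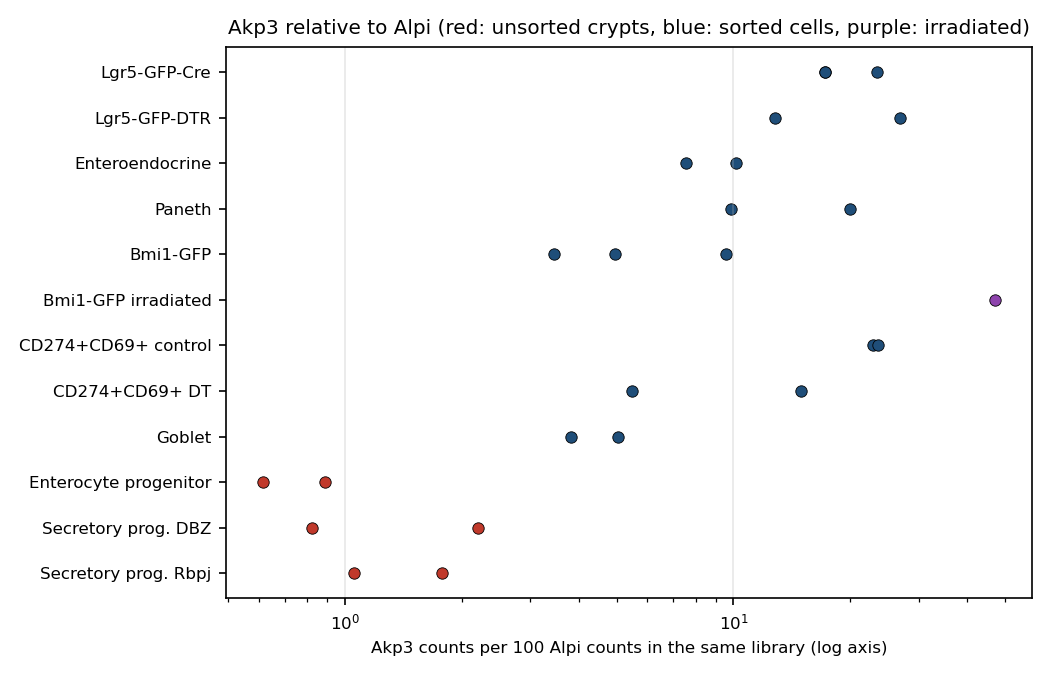
Reads of Akp3 per 100 reads of Alpi in each of 25 libraries, by group, on a log axis; each point is a library. The 6 unsorted crypt libraries (red) lie between 0.614 and 2.20, and the sorted libraries (blue) and the irradiated library (purple) lie above them.

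Tmprss15 (enteropeptidase; chr16:78953008-79091097, minus strand) was the least counted. It had 0 and 0 reads in the DBZ libraries, which allows at most 3 reads per library, 4 and 5 in enterocyte progenitors, 2 and 1 in enteroendocrine cells and 2 and 0 in Lgr5-GFP-DTR cells. The intervals and floors of such counts cover counting error only. Goblet libraries held 4627 and 4261 reads (422 and 359.9 CPM) and CD274+CD69+ controls 341 and 492 (16.9 and 22.2 CPM). Rbpj crypts held 68 and 84 reads (2.58 and 3.59 CPM), so the 2 models of secretory progenitors did not overlap. No fold is given where a group held 3 reads or fewer. Tmprss15 passed the filter through the groups in which it was high. Calls higher or lower against groups that held few reads of it are therefore given for the other 8 genes.

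Over the means of the 11 replicated groups, the log2 levels of the 9 genes rose and fell together, with Akp3 apart. Pearson's r was 0.68 to 0.96 (median 0.87) over the 28 pairs without Akp3, and 0.21 to 0.75 (median 0.46) over the 8 pairs with it. The highest r was that of Alpi with Treh (0.96), followed by Lct with Treh (0.94). These are descriptions over 11 points that share libraries and scaling, and the goblet point lies far from the rest. By the same measure, the genes most like Dpp4 included Slc3a1 (r = 0.99), a subunit of the transporter of cystine and dibasic amino acids. Anpep was most like Plxna2, Ace, Xpr1, Abcc2 and Ticam1, of which Ace (angiotensin-converting enzyme) is another membrane peptidase. Enpep was most like Naaladl1, a membrane peptidase, and Mttp, which loads lipid onto apolipoprotein B (r = 0.98 each), then Hkdc1, Parp9 and Cyb5b. Sis was most like Itgav, Mgam (maltase-glucoamylase, which also splits starch), Usp25, Tmem131 and Apob. Treh was most like Pdzk1, a scaffold under the brush border, Cd36, a fatty acid transporter, Ephx2, Podn and Gsta2. The genes most like Alpi included Elmo1, Creb3l3, Ifi27l2b and Zfp747. Akp3 was most like Efna1 (r = 0.96), and the nearest genes also included Stx5a, Cbr1 and Otop3, none of these 4 on the lists of digestive genes used here. The nearest genes to Lct were Stab1, Zc3hav1, Snrk, Sec14l2 and Podn, and those to Tmprss15 were Smad7, Ghdc, Mob3c, Sec14l2 and Pcdh1.

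Between replicates of most groups, the 9 genes were mostly higher in the library with more enterocyte marker, with exceptions. The share of all genes higher in the same libraries was not counted, so these counts describe the 9 genes only. In DBZ crypts the summed level of the 12 enterocyte markers was 5732 CPM in replicate 1 and 25119.5 CPM in replicate 2, and 8 of 9 hydrolases were higher in replicate 2, with Tmprss15 at 0 in both. In Bmi1-GFP cells, 9 of 9 were higher in replicate 3 (markers 24279.9 CPM) than in replicate 2 (9138 CPM). The same held for 9 of 9 in DT-treated and Rbpj libraries and for 8 of 9 in Paneth cells. In Lgr5-GFP-Cre cells 9 of 9 were higher in replicates 2 and 3 (markers 7047 and 7690 CPM) than in replicate 1 (4816 CPM), but between replicates 2 and 3 only Sis was higher in the library with more marker and 8 of 9 were lower. In enteroendocrine (4 of 9, markers 3278 and 3900 CPM) and Lgr5-GFP-DTR libraries (3 of 9, markers 5532 and 5958.5 CPM) it did not hold. The 9 were higher in the CD274+CD69+ control library with slightly more marker (19227 against 18892 CPM), as were 8 of 9 in enterocyte progenitors, all but Akp3, and 7 of 9 in goblet libraries, all but Akp3 and Alpi. The part of enterocyte content in the differences between groups was not tested.

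**Figure D3:**
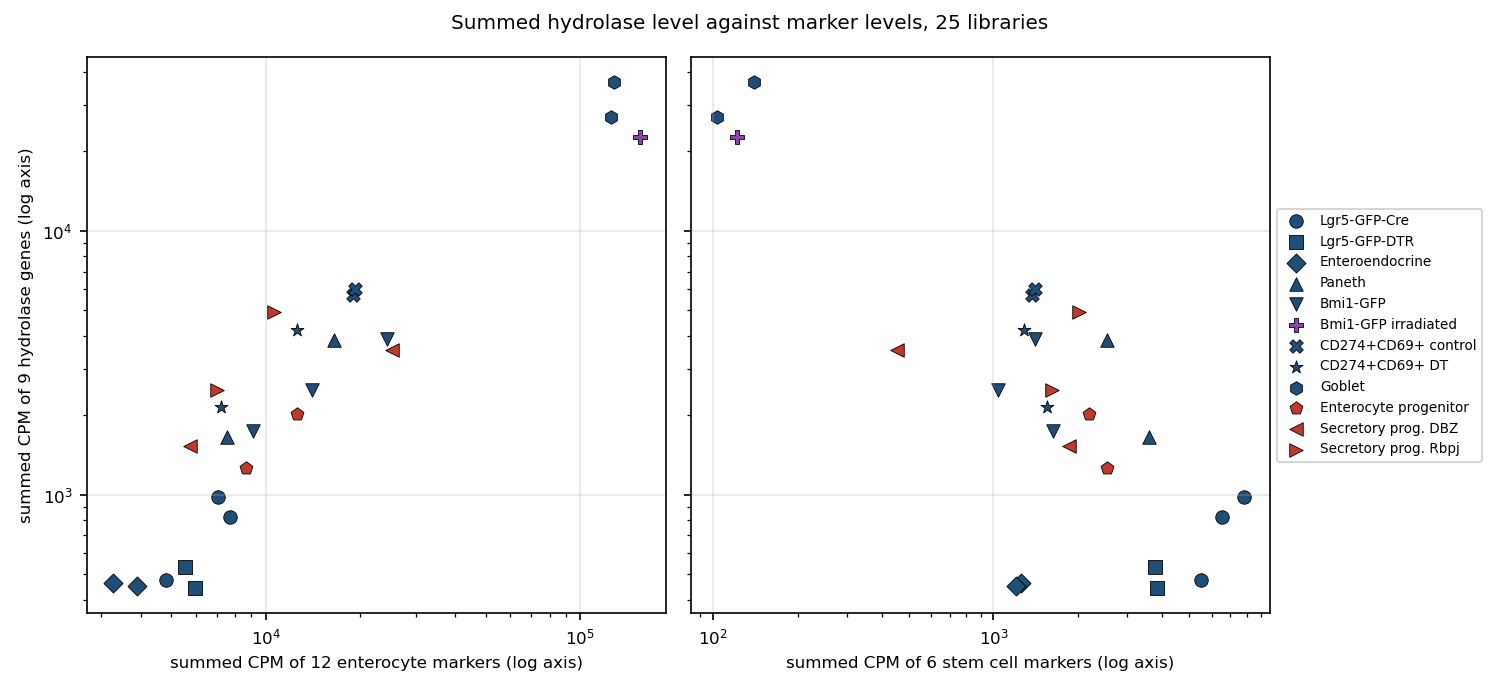
Summed level of the 9 hydrolases against the summed levels of 12 enterocyte markers (left) and 6 stem cell markers (right) in 25 libraries, all in CPM on log axes; symbols are groups and each point is a library. Goblet libraries (27030 and 36504 CPM of hydrolases) and the irradiated library (22738 CPM) lie apart from the rest, high in enterocyte markers and low in stem cell markers.

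Enterocyte progenitors were compared with secretory progenitors to ask which genes separate the absorptive from the secretory branch. Against DBZ crypts, Enpep alone passed the test, and it was lower in enterocyte progenitors: 245 ± 49.2 (SD, n = 2) against 758 ± 389 (SD, n = 2) CPM (log2 -1.63, SE 0.41, adjusted p = 0.0418). The other 8 were not called, among them Sis (log2 0.20, SE 0.57, adjusted p = 0.984) and Lct (log2 -2.01, SE 0.88, adjusted p = 0.354), and 2.43% of all genes tested were called, 0.465% higher and 1.97% lower. The median log2 difference of the 9 genes was -0.90, against -0.015 over all genes. The call for Enpep was lost without enterocyte progenitor replicate 1 (adjusted p = 0.186), without its replicate 2 (0.311), without DBZ replicate 2 (log2 -0.98, adjusted p = 0.582), and in a fit of these 2 groups alone (0.0863). In the same comparison 8 of 9 goblet markers, 6 of 6 Paneth markers and 8 of 8 enteroendocrine markers were lower in enterocyte progenitors, and 0 of 12 enterocyte markers was called in either direction.

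Against Rbpj crypts, Anpep was lower in enterocyte progenitors (values above, log2 -2.79, SE 0.53, adjusted p = 0.000704), and so was Lct (log2 -3.63, SE 0.94, adjusted p = 0.00725). Tmprss15, with 4 and 5 reads in enterocyte progenitors and 68 and 84 in Rbpj crypts, is given by its reads alone. The other 6 were not called, although Enpep passed in a fit of these 2 groups alone (log2 -0.84, adjusted p = 0.028), and 28.3% of all genes were, 13.4% higher and 14.9% lower. Both Rbpj libraries are of the TruSeq kit and both enterocyte progenitor libraries of SMART-Seq v4, so kit and group cannot be told apart here. Kit was also fitted as a term, estimated from the single TruSeq library of the CD274+CD69+ controls. The log2 differences of Anpep and Lct were then close to these, and neither was called (adjusted p = 0.0889 and 0.193). The control libraries were closer to each other than any other pair of replicates, so little changed log2 differences say little about kit. Lct lost its call without enterocyte progenitor replicate 2 (log2 -3.35) or Rbpj replicate 2 (log2 -2.58). Between the 2 models of secretory progenitors, Anpep was higher in Rbpj crypts (log2 1.88, SE 0.51, adjusted p = 0.0106), with 25.8% of all genes called, 12.1% higher and 13.7% lower. With kit as a term it did not pass (adjusted p = 0.274), nor without DBZ replicate 1 (0.114) or Rbpj replicate 2 (0.0837).

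Both kinds of progenitor crypt were set against Lgr5-GFP-Cre stem cells, which the 2 comparisons share. The crypts were unsorted and the stem cells sorted, so sorting and the kind of cell cannot be told apart here. In enterocyte progenitors Sis rose 11.3-fold (log2 3.49, SE 0.53, adjusted p = 9.25e-05), and Enpep (log2 1.71, SE 0.37, adjusted p = 0.00146) and Dpp4 (log2 1.34, SE 0.36, adjusted p = 0.00712) rose as well. Akp3 was lower, at 1.81 ± 0.12 (SD, n = 2) against 48.8 ± 15.5 (SD, n = 3) CPM (log2 -4.75, SE 0.97, adjusted p = 0.00108). Anpep, Lct, Treh, Alpi and Tmprss15 were not called, and 39.7% of all genes were, 21.3% higher and 18.4% lower. In DBZ crypts Sis (log2 3.29, SE 0.53, adjusted p = 0.000137), Enpep (log2 3.34, SE 0.38, adjusted p = 5.91e-06), Dpp4 (log2 1.77, SE 0.36, adjusted p = 0.00107) and Anpep (log2 1.71, SE 0.45, adjusted p = 0.00613) were higher and Akp3 lower (log2 -3.73, SE 0.91, adjusted p = 0.00401), with 36.5% of all genes called, 20.9% higher and 15.5% lower. Dpp4 lost its call in enterocyte progenitors without their replicate 1 (adjusted p = 0.132), and Anpep lost its call in DBZ crypts without DBZ replicate 2 (log2 0.81, adjusted p = 0.25). In enterocyte progenitors 6 of 6 tuft markers, 6 of 6 lymphocyte markers, 3 of 6 myeloid markers and 4 of 5 tested stromal and endothelial markers were also higher than in stem cells, and 5 of 6 stem cell, 9 of 9 goblet, 6 of 6 Paneth and 8 of 8 enteroendocrine markers were lower. In DBZ crypts 6 of 9 goblet, 5 of 6 tuft, 1 of 6 lymphocyte, 2 of 6 myeloid and 2 of 5 stromal and endothelial markers were higher, and 6 of 6 stem cell and 5 of 6 Paneth markers were lower. The part of these cells in the results was not tested.

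Goblet libraries were compared with CD274+CD69+ controls, which were sorted with the same antibodies. Sis, Treh, Anpep, Dpp4, Alpi and Tmprss15 were higher in goblet libraries, 6 of 9, where 50.9% of all genes were called, 26.6% higher and 24.3% lower. Anpep rose 12.5-fold (log2 3.64, SE 0.55, adjusted p = 2.36e-05), Dpp4 6.97-fold (log2 2.80, SE 0.43, adjusted p = 2.89e-05) and Sis 6.1-fold (log2 2.61, SE 0.60, adjusted p = 0.00142). Tmprss15 rose as well (log2 4.32, SE 0.82, adjusted p = 0.000299). Lct (log2 1.32, SE 0.86, adjusted p = 0.208), Enpep (log2 0.89, SE 0.41, adjusted p = 0.0779) and Akp3 (log2 -0.61, SE 0.82, adjusted p = 0.555) were not called. The calls for Alpi (adjusted p = 0.0152) and Treh (0.0412) were lost with kit as a term (0.0848 and 0.159), with the 2 controls as 1 sample (0.0798 and 0.145), without either control library (0.0691 and 0.0849 for Alpi; 0.126 and 0.159 for Treh), and without goblet replicate 2 (0.0748 and 0.0797); Treh also without goblet replicate 1 (0.117). Enpep was called with the replicate number as a block (0.0443), by DESeq2 (0.0376), in a fit of these groups alone (0.0141) and without goblet replicate 2 (0.0423), and Lct in the fit of these groups alone (0.00138). In this comparison 7 of 9 goblet markers and 7 of 12 enterocyte markers were higher, and 5 of 6 stem cell markers were lower and 1 higher. Also higher were 6 of 6 tuft markers (summed level 162 and 169.9 CPM against 3.51 and 3.70 CPM), 7 of 8 enteroendocrine markers (3047 and 2594 CPM against 411 and 361 CPM) and 3 of 6 lymphocyte markers, and 5 of 6 proliferation markers were lower. Their part in the result was not tested.

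Goblet libraries were then set against the progenitor crypts and Paneth cells, and the 3 comparisons share the goblet libraries. The crypts were unsorted and the goblet libraries sorted, so sorting and group cannot be told apart in the comparisons with crypts. The 8 genes other than Tmprss15 were all higher than in enterocyte progenitors, where 57.6% of all genes were called, 30.9% higher and 26.7% lower. The log2 difference was 6.22 for Anpep, 6.97 for Akp3 and 5.73 for Lct, and the lowest was 2.66, for Enpep (log2 2.66, SE 0.43, adjusted p = 3.5e-05). These 8 were also higher than in DBZ crypts, where 55.3% of all genes were called, 29.3% higher and 26.0% lower, from 1.03 for Enpep (log2 1.03, SE 0.41, adjusted p = 0.0399) to 5.95 for Akp3 (log2 5.95, SE 1.03, adjusted p = 7.79e-05). The call for Enpep against DBZ crypts was lost without DBZ replicate 1 (adjusted p = 0.332), without goblet replicate 1 (0.354) and in a fit of these 2 groups alone (0.105). Against Paneth cells 7 of these 8 were higher, where calls made up 52.3% of all genes, 26.9% higher and 25.4% lower, and Anpep stood at log2 4.86 (SE 0.58). Akp3 was not called (log2 1.11, SE 0.83, adjusted p = 0.271) except without Paneth replicate 2 (adjusted p = 0.036), and Lct (log2 2.70, SE 0.90, adjusted p = 0.0171) was lost without either Paneth library (0.107 and 0.0514) or without goblet replicate 1 (0.0754). With DESeq2's size factors the median of all genes lay 0.138 and 0.185 above 0 on the log2 scale in the comparisons with enterocyte progenitors and DBZ crypts, below the difference of each of the 8 genes. Tmprss15 held 4627 and 4261 reads in goblet libraries, 4 and 5 in enterocyte progenitors and 0 and 0 in DBZ crypts, as given above.

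**Figure D4:**
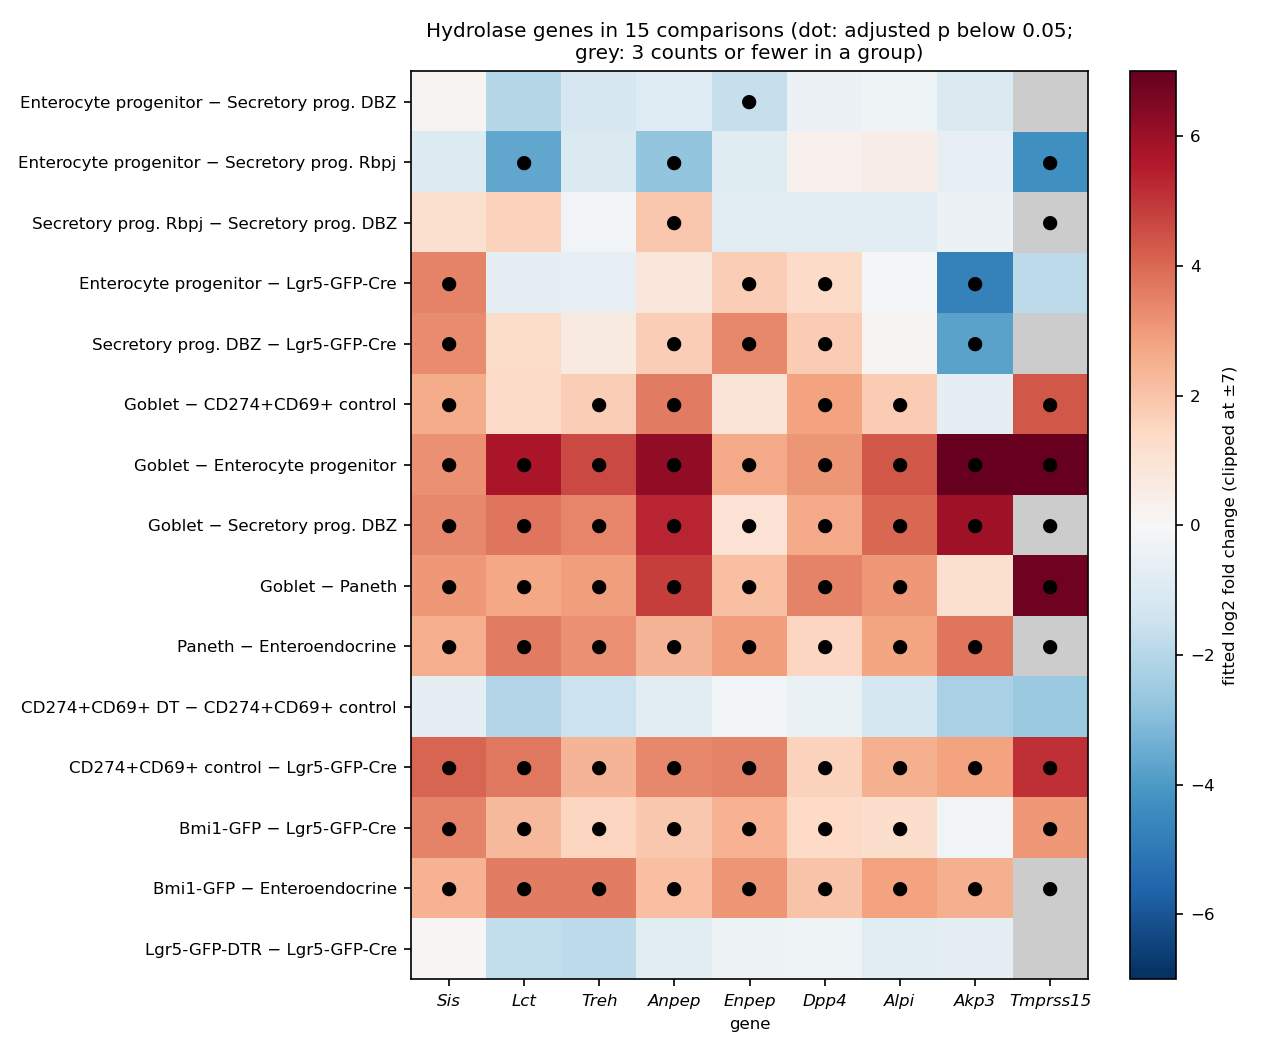
Fitted log2 fold change of each hydrolase (columns) in 15 comparisons (rows, first group minus second), red for higher and blue for lower, clipped at 7 in either direction; dots mark an adjusted p below 0.05 and grey cells a group with 3 reads or fewer. Rows with goblet libraries first are red in nearly every column, and the row for DT-treated against control cells has no dot.

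Paneth cells were compared with enteroendocrine cells, the other mature secretory cells sorted on CD24. The 8 genes other than Tmprss15, which had 3 reads in all in enteroendocrine cells, were higher in Paneth cells, where 30.1% of all genes were called, 15.9% higher and 14.2% lower. Enpep (log2 2.94, SE 0.44, adjusted p = 0.00026) had the lowest p, Lct (log2 3.63, SE 0.94, adjusted p = 0.0091) and Akp3 (log2 3.75, SE 0.93, adjusted p = 0.00686) had the largest folds, and Dpp4 the smallest (log2 1.49, SE 0.41, adjusted p = 0.0122). Without enteroendocrine replicate 1, 5 of the 8 were called, and Lct (0.0759), Dpp4 (0.0992) and Akp3 (0.0552) were lost. Calls were also lost without enteroendocrine replicate 2 (Lct 0.0504) and without Paneth replicate 2 (Sis 0.0675, Dpp4 0.275, Akp3 0.127), and Dpp4 in a fit of these 2 groups alone (0.0725). Paneth replicate 2 had the higher enterocyte marker sum, 16424.5 against 7544 CPM, and both were above the 3278 and 3900 CPM of enteroendocrine libraries. Enteroendocrine libraries also carried Paneth markers, at 57828 and 51314 CPM over 6 genes against 332156 and 204061 CPM in Paneth cells. In the enteroendocrine libraries 8 enteroendocrine markers summed to 26268 and 13371 CPM, and 9 goblet markers to 27344 and 14368 CPM. The part of these cells in the result was not tested.

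CD274+CD69+ cells are a crypt population sorted on 2 surface proteins. In the controls the 8 genes other than Tmprss15 were higher than in Lgr5-GFP-Cre stem cells, where 45.0% of all genes were called, 23.6% higher and 21.4% lower. Sis rose 16.7-fold (log2 4.06, SE 0.54, adjusted p = 1.52e-05), Enpep 11.2-fold (log2 3.49, SE 0.38, adjusted p = 1.92e-06) and Anpep 10.4-fold (log2 3.38, SE 0.46, adjusted p = 1.83e-05). The smallest rise was that of Dpp4 (log2 1.62, SE 0.36, adjusted p = 0.00146). These 8 calls were kept in each setting run, with the 2 controls as 1 sample and without each library in turn. In the same comparison 8 of 12 enterocyte markers were higher and 6 of 6 stem cell markers lower. The controls were released with Dispase and the stem cells with TrypLE, and their genotypes differ. Enzyme, genotype and kind of cell cannot be told apart here.

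After DT, which the labels give to the same sort of cells, 0 of 9 genes was called against controls by edgeR, and DESeq2 called 0. Over all genes 0.175% were called, 0.0741% higher and 0.101% lower. The differences were negative for 9 of 9, from -0.18 for Enpep to -2.60 for Tmprss15 (log2 -2.60, SE 0.80, adjusted p = 0.353), with Akp3 at 24.1 and 122 CPM after DT and 332 and 364 CPM in controls (log2 -2.26, SE 0.86, adjusted p = 0.607). For 8 of 9 genes the 2 groups did not overlap, all 8 lower after DT, and the same was seen for 55.9% of all genes, 27.4% higher and 28.6% lower after DT. The 2 treated libraries differed widely from each other, as with Lct at 42.5 and 203 CPM, and their enterocyte marker sums were 7196 and 12603 CPM against 18892 and 19227 CPM in controls.

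Bmi1-GFP cells were compared with Lgr5-GFP-Cre stem cells and with enteroendocrine cells. Against stem cells 7 of the 8 genes other than Tmprss15 were higher, where 49.8% of all genes were called, 28.1% higher and 21.7% lower. Sis (log2 3.48, SE 0.51, adjusted p = 3.78e-05) and Enpep (log2 2.41, SE 0.35, adjusted p = 3.35e-05) led, and Akp3 was not called (log2 -0.18, SE 0.67, adjusted p = 0.843). Without Bmi1-GFP replicate 3, 4 of the 8 were called, and Lct (0.0623), Alpi (0.164) and Treh (0.13) were lost; without Lgr5-GFP-Cre replicate 1, 4 were called, and the same 3 were lost (0.0639, 0.14 and 0.115). Alpi was also lost without Lgr5-GFP-Cre replicate 3 (0.0734) or Bmi1-GFP replicate 1 (0.0717). Against enteroendocrine cells these 8 were all higher, where the calls over all genes were 24.9%, of which 14.3% higher and 10.5% lower, and Enpep (log2 3.08, SE 0.42, adjusted p = 0.000182) and Treh (log2 3.59, SE 0.71, adjusted p = 0.00206) had the lowest p. Akp3 (log2 2.46, SE 0.85, adjusted p = 0.0408) lost its call with the replicate number as a block (log2 1.89, adjusted p = 0.117), in a fit of these 2 groups alone (0.0527), and without any of Bmi1-GFP replicates 1 and 3 and enteroendocrine replicates 1 and 2 (0.0508 to 0.209). Without enteroendocrine replicate 1, 4 of the 8 were called, with Anpep (0.0563), Sis (0.0507) and Lct (0.0881) also lost, and without enteroendocrine replicate 2 Sis (0.0509) and Lct (0.0582) were lost. Bmi1-GFP cells carried enteroendocrine markers at 8139 to 14701 CPM, and enterocyte markers at 9138 to 24279.9 CPM. Genotype and kind of cell cannot be told apart in either comparison. Bmi1-GFP cells were released with TrypLE and enteroendocrine cells with Dispase, so in that comparison the enzyme cannot be told apart either.

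The 2 Lgr5-GFP lines, both labelled stem cells, were compared with each other. The DTR libraries carried Paneth markers at 215387 and 156869 CPM, against 40534 to 47718 CPM in Cre libraries and 204061 CPM in Paneth replicate 2. In the DTR line 6 of 6 Paneth and 6 of 6 tuft markers were higher than in the Cre line, and 1 of 6 stem cell markers was lower. Their part in the levels of the hydrolases was not tested. By edgeR 0 of 9 genes was called, and 20.8% of all genes were called, 8.83% higher and 12.0% lower. Treh, at 9.09 and 15.1 CPM in DTR cells and 19.5, 58.5 and 53.4 CPM in Cre cells, was nearest to the threshold (log2 -1.86, SE 0.66, adjusted p = 0.0543). DESeq2 called it lower in the DTR line (0.0306), as did edgeR without the filter (0.0312) and without Lgr5-GFP-Cre replicate 1 (0.0241). Lct was called without Lgr5-GFP-DTR replicate 1 (log2 -4.35, adjusted p = 0.02).

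The irradiated Bmi1-GFP library has no replicate, so its values have no test. All 9 genes were above the highest of the 3 unirradiated libraries, as were 39.3% of all genes tested, and 82.3% lay outside the range of the 3, with 43.0% below it. Akp3 stood at 1806 CPM, 20.9-fold the highest unirradiated library, and Tmprss15 at 232 CPM, 21.5-fold. Treh (1743 CPM), Lct (2402 CPM) and Anpep (4326 CPM) were 9.17-fold, 8.04-fold and 6.89-fold that library. Enpep (3039 CPM), Dpp4 (2159.5 CPM), Alpi (3821 CPM) and Sis (3208 CPM) were 6.48-fold, 5.24-fold, 4.24-fold and 3.60-fold. For Lct, Treh, Enpep and Akp3 it was the highest of all 25 libraries. The enterocyte markers summed to 154451 CPM in it, against 9138 to 24279.9 CPM in the unirradiated libraries, stem cell markers to 122 against 1041 to 1632 CPM, and lymphocyte markers to 252 against 863 to 2105 CPM. Their part in the result was not tested.

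Other digestive genes of the enterocyte were read from lists. Of all genes tested, 30.9% were higher in goblet libraries than in enterocyte progenitors and 26.7% lower. Of 15 tested membrane hydrolases beside the 9 (Folh1 was not tested), 14 were higher in that comparison (median log2 4.54, against 0.10 over all genes). Among them were Mgam (4363 ± 833 against 240.3 ± 47.4 CPM, log2 4.18, SE 0.44, adjusted p = 2.67e-07) and Asah2, a neutral ceramidase (2174 ± 244 against 13.1 ± 3.91 CPM, log2 7.38, SE 0.79, adjusted p = 3.47e-07), and Alppl2 was not called (adjusted p = 0.872). Against DBZ crypts, 3 of these 15 were lower in enterocyte progenitors and 0 higher (median log2 -1.40): phospholipase Plb1 (0.248 ± 0.0804 against 45.2 ± 1.88 CPM, log2 -7.45, SE 0.93, adjusted p = 5.77e-05), peptidase Naaladl1 (88.5 ± 3.14 against 266 ± 139.6 CPM, log2 -1.59, SE 0.35, adjusted p = 0.0168) and Enpp7, which cleaves sphingomyelin (5.17 ± 0.584 against 63.5 ± 54.0 CPM, log2 -3.62, SE 0.84, adjusted p = 0.0229). Over all genes, 1.97% were lower in enterocyte progenitors than in DBZ crypts and 0.465% higher. Against Rbpj crypts 8 of 15 were lower and 0 higher, where 14.9% of all genes were lower and 13.4% higher. Kit and group cannot be told apart in the comparison with Rbpj crypts. In CD274+CD69+ controls 12 of 15 were higher than in Lgr5-GFP-Cre cells, where 23.6% of all genes were higher and 21.4% lower.

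Transporters that take up the products formed another list. In goblet libraries against enterocyte progenitors 8 of 10 were higher and 1 lower (median log2 2.86), where 30.9% of all genes were higher and 26.7% lower. The peptide transporter Slc15a1 rose (1989 ± 355 against 32.4 ± 12.5 CPM, log2 5.94, SE 0.77, adjusted p = 2.83e-06), while that for glutamate, Slc1a1, fell (log2 -3.54 (SE 0.40), adjusted p = 6.39e-07). The fructose and glucose transporter Slc2a2 was not called (adjusted p = 0.0593). In CD274+CD69+ controls 10 of 10 were higher than in Lgr5-GFP-Cre cells, where 23.6% of all genes were higher and 21.4% lower. In enterocyte progenitors 7 of 10 were higher than in Lgr5-GFP-Cre cells, where 21.3% of all genes were higher and 18.4% lower. Between enterocyte progenitors and DBZ crypts 0 of 10 was called, and 2.43% of all genes were. Of 10 intracellular peptidases, 5 were higher and 1 lower in goblet libraries than in enterocyte progenitors (median log2 0.43), among them the dipeptidase Cndp2 (log2 1.97 (SE 0.44)). Over all genes 30.9% were higher and 26.7% lower in that comparison.

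Of 14 regulators of intestinal genes, 8 were higher and 2 lower in goblet libraries than in enterocyte progenitors, where 57.6% of all genes were called. Hnf4a, a nuclear receptor that drives enterocyte genes, rose (1645 ± 162 against 528 ± 46.0 CPM, log2 1.64, SE 0.21, adjusted p = 2.71e-06), as did Gata6 (251 ± 6.06 against 73.7 ± 0.861 CPM, log2 1.77, SE 0.21, adjusted p = 9.44e-07) and Maf (372 ± 59.3 against 13.4 ± 0.511 CPM, log2 4.79, SE 0.75, adjusted p = 2.52e-05), and Cdx1 fell (112 ± 18.7 against 520.3 ± 69.6 CPM, log2 -2.21, SE 0.25, adjusted p = 6.93e-07). Gata4 was not called (adjusted p = 0.538). Hnf4g, a relative of Hnf4a, was higher than in Lgr5-GFP-Cre cells in CD274+CD69+ controls (603 ± 8.48 against 65.2 ± 14.9 CPM, log2 3.21, SE 0.33, adjusted p = 1.06e-06), in enterocyte progenitors (log2 2.47 (SE 0.32)) and in DBZ crypts (log2 2.81 (SE 0.32)). Between enterocyte progenitors and DBZ crypts 0 of 14 was called, with Elf3 at an adjusted p of 0.328, and 2.43% of all genes were called.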

How the data were processed

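RNA-seq counts of 25 libraries were analysed. The values are the authors' deposited read counts per gene, aligned per the submitters' processing notes with TopHat2 and Bowtie2 to mm10. Those notes also name DESeq2. Counting program, annotation and strand: not given in the sources used here. A further 24 samples of the series, from chromatin assays, were not analysed here.

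From the counts, TMM-scaled CPM were computed with edgeR 4.0.16 in R 4.3.3. Genes passing filterByExpr (minimum count 10, minimum total 15) were tested by edgeR's quasi-likelihood test fitted over 24 libraries of 11 groups, with Benjamini-Hochberg adjustment over all 14837 genes. A call is an adjusted p below 0.05. The irradiated library entered no test. Library totals of 11179085 to 27371108 reads bound counting error only. Scripts were tested on simulated data.

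The 9 genes and the other lists were chosen with earlier results of these data known. Genes outside the 9 were named by rule: up to 4 members of lowest adjusted p and the most expressed uncalled member of each list in a comparison, and the 5 genes with the highest correlation to each of the 9; some genes that the rule names are not reported here. The CD274+CD69+ control pair, the split of Akp3 by sorting, its ratio to Alpi and the comparison of replicates by enterocyte marker sum were looked at after the values were seen. Over 111 pairs of same-numbered libraries of different groups, the correlation of deviations was -0.239 to 0.327 (median -0.007), with 23 over 0.1. No reference was set beside these values, so they do not show whether some pairs shared a mouse or a day. Alternatives were DESeq2's size factors, DESeq2 1.42.0 itself, no filter, a fit of the compared groups alone, the replicate number as a block, kit as a factor, and each library left out. Promoter sequences are from RefSeq on GRCm38.p6.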

Additional observations from a re-analysis of the deposited data

How the results depend on the processing

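The number of the 9 genes called moved past 1.5 times in 4 comparisons under settings other than leaving out a library. Enterocyte progenitors against DBZ crypts fell from 1 to 0 with only these groups fitted. With kit as a factor, enterocyte progenitors against Rbpj crypts fell from 3 to 0 and Rbpj against DBZ crypts from 2 to 0. Between the Lgr5-GFP lines it rose from 0 to 1 without the filter and by DESeq2. With each library left out in turn, the counts ran from 0 to 1, 1 to 3, 1 to 2 and 0 to 1 in these comparisons, from 5 to 9 for Paneth against enteroendocrine cells, from 4 to 8 for Bmi1-GFP against Lgr5-GFP-Cre cells and from 5 to 9 for Bmi1-GFP against enteroendocrine cells. The cause was not tested. The count of 4 comparisons was made with Tmprss15 included.

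With the replicate number as a block, 2 calls changed, Enpep (goblet against control) and Akp3 (Bmi1-GFP against enteroendocrine), and the uncalled log2 difference of Alpi between enterocyte progenitors and Lgr5-GFP-Cre cells turned to 0.15. Whether the numbers pair the samples is not known. Over single genes and comparisons, leaving out a library reversed the sign in 24 cases, none of them called in the fit of all libraries, lost the call in 50 and gained it in 5. The log2 ranges of the reversed genes follow. Enterocyte progenitors minus DBZ crypts gave -0.38 to 0.82 for Sis, -0.82 to 0.084 for Dpp4, -0.86 to 0.57 for Alpi and -1.94 to 0.45 for Treh. Enterocyte progenitors minus Rbpj crypts gave -1.54 to 0.070 for Sis, -0.11 to 0.87 for Dpp4 and -1.22 to 0.49 for Akp3. Rbpj minus DBZ crypts gave -1.33 to 0.11 for Alpi, -1.50 to 0.20 for Akp3 and -1.04 to 1.44 for Treh. Against Lgr5-GFP-Cre cells, Alpi ran from -0.40 to 0.23 in enterocyte progenitors, and in DBZ crypts Lct ran from -0.20 to 2.02, Alpi from -0.68 to 0.75 and Treh from -0.999 to 1.39. Enpep after DT ran from -0.47 to 0.055, Akp3 in Bmi1-GFP against Lgr5-GFP-Cre cells from -1.20 to 0.28, and Sis between the Lgr5-GFP lines from -0.20 to 0.32.

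Counts over all genes also moved. Enterocyte progenitors against DBZ crypts had 361 calls by edgeR and 655 by DESeq2. With kit as a factor, 4198 calls against Rbpj crypts became 637 and the 3827 between Rbpj and DBZ crypts became 389. With only the compared groups fitted, 4462 calls between Paneth and enteroendocrine cells became 1326 and 3092 between the Lgr5-GFP lines became 478. The 26 calls after DT ran from 9 with the controls as 1 sample to 527 with only these groups fitted, with 121 by DESeq2, 50 without the filter and 10 with kit as a factor.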
